A study of Homo sapiens with 6 samples.

Results

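Levels of 10 genes of 4 families of RNA-binding proteins were described in SH-SY5Y cells: ELAVL1, ELAVL2, ELAVL3 and ELAVL4, NOVA1 and NOVA2, RBFOX1 and RBFOX2, and PTBP1 and PTBP2. They were found by symbol among the 32862 genes of the table, and all 10 were present. The families were chosen by their names, but with their counts and FPKM in the 2 genotypes in view, so these levels are given as a description, with no test. SH-SY5Y is a human neuroblastoma line, and the study set wild-type cells (WT, 3 libraries) beside cells in which CRISPR-Cas9 had been used to knock out OTULIN (KO, 3 libraries), the enzyme that removes linear ubiquitin chains. Cells of both genotypes were untreated, grown in the same medium and given the same batch number, 1, and poly(A) RNA was sequenced. The labels do not say whether the KO cells were 1 clone, nor whether replicates were separate cultures, so any error given here measures the spread between these libraries.

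The KO and WT libraries stood apart before any gene was considered. KO libraries held 725827 to 862932 counts and WT libraries 61772795 to 64352333, a 78.5-fold difference in the means. Counts were found for 2306 to 2567 genes in KO and for 27453 to 27958 in WT. OTULIN itself had 0 counts in the 3 KO libraries and 1682 to 2155 in WT, but 71.3% of the 10820 tested genes, those averaging at least 1 FPKM over the libraries, were also at 0 in all KO libraries, so this says little about the labels. Genotype, depth and make-up of the libraries cannot be told apart, and their part in the results was not tested. In bulk RNA, fewer cells with a transcript and less of it per cell cannot be told apart either. Of the 8 adrenergic neuroblastoma markers, 7 were tested and all 7 fell in KO by edgeR's quasi-likelihood test (a call is an adjusted p under 0.05 by Benjamini-Hochberg), as did 88.0% of all tested genes. Their summed level was 525 to 696 CPM (counts per 1000000 counts of the library) in the KO libraries and 5344 to 5847 in the WT libraries, and the defining markers PHOX2A, GATA3, DBH and TH were at 0 in KO. Epithelial markers had a summed level of 17.3 to 68.4 CPM in the KO libraries and 3.53 to 35.6 in the WT libraries. Blood markers came to at most 6.89 CPM and glial and endothelial markers to at most 23.2 CPM in any KO library.

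ELAVL proteins (also called Hu proteins) bind AU- and U-rich elements of mRNAs and affect their stability, translation and splicing; ELAVL1 is made in nearly all cells, while ELAVL2, ELAVL3 and ELAVL4 are largely neuronal. NOVA1 and NOVA2 are KH-domain proteins that bind YCAY clusters around neuronal exons, and RBFOX proteins bind GCAUG. PTBP1 binds pyrimidine-rich tracts and represses many neuronal exons in non-neuronal cells, and PTBP2, its neuronal paralog, replaces it as neurons form. A classical link between the 2 paralogs is that PTBP1 promotes skipping of a 34-base exon of PTBP2, which shifts the reading frame and sends the mRNA to decay. PTBP1 regulates the matching exon of its own transcript in the same way.

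The 2 exons are shown because they carry that cross-regulation, and because PTBP1 and PTBP2 had opposite levels in these libraries. Both were read from GRCh38 with GENCODE 29 (exon 10 of 14 in each transcript used), PTBP1 at chr19:807869-807902 and PTBP2 at chr1:96806419-96806452, plus strand. Capitals mark bases that are identical at the same position, 25 of 34 (73.5%).
PTBP1: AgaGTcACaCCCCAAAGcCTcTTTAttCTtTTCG
PTBP2: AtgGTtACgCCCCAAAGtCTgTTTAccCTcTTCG
In the annotation 6 of 9 coding transcripts of PTBP1 that span the position include the exon, and 4 of 4 do so for PTBP2. The table holds 1 value per gene, so inclusion of these exons was not measured.

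Within the PTBP family, the levels in KO and WT were opposite. PTBP1 (ENSG00000011304, hg38 chr19:797075-812327, plus strand) had 0, 3 and 0 counts in the KO libraries and 41404, 40902 and 39091 in WT. This was 0, 3.48 and 0 CPM against 666, 636 and 633 CPM, so the groups did not overlap. At the WT share, each KO library would have held 468 to 556 counts of PTBP1. The pooled ratio was 515-fold lower in KO, with an exact 95% counting interval of 176 to 2499-fold. All 3 counts came from KO replicate 2, and without that library PTBP1 was at 0 in KO.

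PTBP2 (ENSG00000117569, chr1:96721665-96815612, plus strand) had 1274, 1209 and 1256 counts in KO and 4533, 5195 and 4815 in WT. Scaled to the library total, this was 1574, 1401 and 1730.4 in KO against 72.9, 80.7 and 77.9 in WT, and every KO library lay above every WT library. The mean was 1568 ± 165 CPM (SD, n = 3) in KO and 77.2 ± 4.0 in WT, 20.3-fold higher, with a fitted log2 change of 3.95 ± 0.09 (SE). PTBP2 ranked 91 to 92 among genes by counts in KO and 2878 to 3195 in WT.

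Per length, PTBP1 made up 95.7% ± 0.32 of the FPKM (fragments per kilobase per 1000000 fragments) of the pair in WT and 0.189% ± 0.33 in KO, and PTBP2 4.28% ± 0.32 and 99.8% ± 0.33. PTBP1 was 21.1 to 24.5 times PTBP2 in the WT libraries, and in the KO library where PTBP1 was seen PTBP2 was 175 times PTBP1. The summed FPKM of the pair was 69.9 ± 7.7 in KO and 82.1 ± 2.1 in WT. In CPM, which is not corrected for length, the sum went the other way, 1569.5 ± 163 in KO and 722 ± 15 in WT. PTBP3, a further paralog outside the 10 genes, had 37, 73 and 49 counts in KO and 4000, 4598 and 4599 in WT. Its level of 65.9 ± 19 CPM in KO and 70.1 ± 5.2 in WT gave a log2 change of -0.47 ± 0.22 (edgeR adjusted p = 0.075), which was -1.03 and called with median-ratio scaling and -0.08 with library totals alone.

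**Figure D1:**
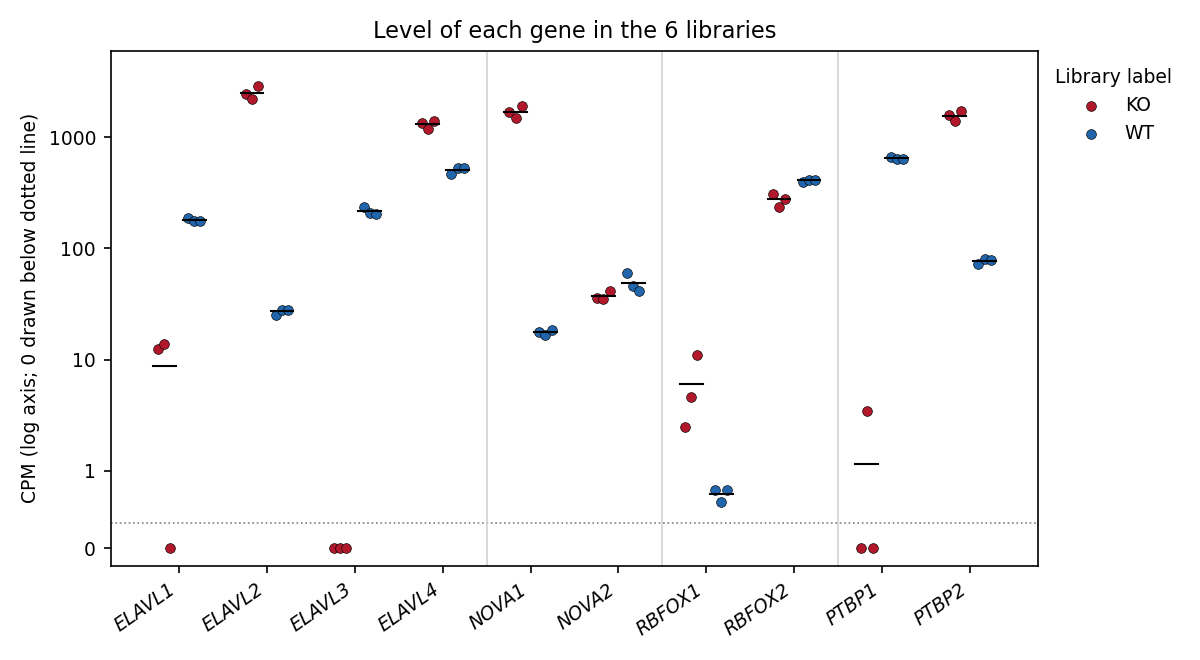
CPM (log axis, 0 drawn below the dotted line) of the 10 genes in each of the 3 KO and 3 WT libraries; points are libraries and bars group means. ELAVL2, NOVA1 and PTBP2 sit at 1401 to 2897 CPM in KO against 16.6 to 80.7 in WT, while PTBP1 and ELAVL3 are at or near 0 in KO.

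The NOVA pair likewise changed places. NOVA1 (ENSG00000139910, chr14:26443093-26597519, minus strand) had 1378, 1278 and 1386 counts in KO and 1101, 1068 and 1133 in WT. It therefore had more raw counts in the shallow KO libraries than in the deep WT libraries, which held for 1.06% of tested genes. In CPM this was 1702, 1481 and 1909.5 in KO against 17.7, 16.6 and 18.3 in WT. The groups were far apart: 1698 ± 214 against 17.5 ± 0.88 CPM, 96.8-fold higher, with a log2 change of 6.20 ± 0.11.

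NOVA2 (ENSG00000104967, chr19:45933734-45974044, minus strand) had 29, 30 and 30 counts in KO and 3769, 2965 and 2552 in WT. Its level was 35.8, 34.8 and 41.3 CPM in KO and 60.6, 46.1 and 41.3 in WT, so the highest KO library met the lowest WT library. The mean was 1.32-fold lower in KO, with a log2 change of -0.80 ± 0.23 that was -1.37 with median-ratio scaling, -0.41 with library totals alone and -0.07 with WT thinned to the KO depth. NOVA1 was 38.2 to 42.6 times NOVA2 in FPKM in KO, and NOVA2 was 2.54 to 3.87 times NOVA1 in WT. NOVA1 thus held 97.6% ± 0.15 of the FPKM of the pair in KO and 24.3% ± 3.9 in WT. The summed FPKM of the pair was 151 ± 20 in KO and 6.47 ± 1.0 in WT.

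Promoters of the NOVA and PTBP pairs are shown because the leading paralog of each pair by FPKM differed between KO and WT. Each runs from 250 bases before to 50 after a transcription start listed by RefSeq (GRCh38.p14), 5′ to 3′ on the gene's strand, with every GGGCGG or its reverse complement CCGCCC in capitals. NOVA1 lies at chr14:26597984-26598283 (minus, 1 of 3 listed starts), NOVA2 at chr19:45973816-45974115 (minus), PTBP1 at chr19:797202-797501 (plus, 1 of 2 listed starts) and PTBP2 at chr1:96722388-96722687 (plus). The whole NOVA1 window lies upstream of the gene as counted (chr14:26443093-26597519). Those of PTBP1 and PTBP2 lie within the counted genes, and that of NOVA2 spans its 5′ end.
NOVA1: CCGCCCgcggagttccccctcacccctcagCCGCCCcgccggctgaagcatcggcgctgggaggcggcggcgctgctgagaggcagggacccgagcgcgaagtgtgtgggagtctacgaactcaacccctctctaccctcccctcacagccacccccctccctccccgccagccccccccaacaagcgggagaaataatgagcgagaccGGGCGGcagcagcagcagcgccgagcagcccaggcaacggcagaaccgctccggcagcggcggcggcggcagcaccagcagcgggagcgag
NOVA2: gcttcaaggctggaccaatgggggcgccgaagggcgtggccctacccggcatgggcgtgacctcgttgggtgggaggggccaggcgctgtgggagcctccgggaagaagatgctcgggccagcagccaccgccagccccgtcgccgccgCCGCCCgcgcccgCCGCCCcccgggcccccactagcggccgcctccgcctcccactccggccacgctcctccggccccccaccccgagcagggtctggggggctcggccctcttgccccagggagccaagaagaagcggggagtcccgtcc
PTBP1: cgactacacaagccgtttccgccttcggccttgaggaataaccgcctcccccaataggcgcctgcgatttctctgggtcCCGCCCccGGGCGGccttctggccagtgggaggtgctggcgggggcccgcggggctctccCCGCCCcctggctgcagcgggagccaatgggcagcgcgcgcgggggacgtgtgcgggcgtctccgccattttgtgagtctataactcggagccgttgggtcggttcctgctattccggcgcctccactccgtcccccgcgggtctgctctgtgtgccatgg
PTBP2: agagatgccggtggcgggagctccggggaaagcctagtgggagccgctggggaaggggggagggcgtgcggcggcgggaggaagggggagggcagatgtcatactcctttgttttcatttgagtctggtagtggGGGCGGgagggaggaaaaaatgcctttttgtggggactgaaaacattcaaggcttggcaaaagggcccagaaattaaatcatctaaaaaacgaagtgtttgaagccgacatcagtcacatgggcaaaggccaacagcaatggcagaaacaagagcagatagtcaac
The GGGCGG motif, the core of a GC box, occurred 3 times in the NOVA1 window, 2 in NOVA2, 3 in PTBP1 and 1 in PTBP2, on either strand. It is found in 45.0% of the 35116 listed promoters of the same length. CCAAT or ATTGG occurred 1 time in NOVA2 and 2 times in PTBP1, and in 34.6% of all promoters. TATAAA or TTTATA, found in 11.5%, was in none of the 4 windows. The windows had GC contents of 72.7% (NOVA1), 76.7% (NOVA2), 69.3% (PTBP1) and 54.0% (PTBP2). The part of promoter composition in these levels was not tested. Of the 10 genes, 7 had an entry in the promoter table.

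In the ELAVL family, 2 neuronal paralogs were higher in KO, and the other neuronal paralog, ELAVL3, and the ubiquitous ELAVL1 were lower. ELAVL2 (ENSG00000107105, chr9:23690104-23826174, minus strand) had 1972, 1890 and 2103 counts in KO and 1577, 1801 and 1726 in WT, the other of the 2 genes here with more raw counts in KO. Its level was 2436, 2190.2 and 2897 CPM in KO against 25.3, 28.0 and 27.9 in WT. That is 2508 ± 359 against 27.1 ± 1.5 CPM, 92.6-fold higher with a log2 change of 6.13 ± 0.12. Among genes ordered by counts, ELAVL2 stood at 51 to 52 in KO and at 7071 to 7401 in WT.

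ELAVL4 (ENSG00000162374, chr1:50024029-50203772, plus strand), or HuD, had 1089, 1023 and 1020 counts in KO and 29101, 34226 and 32795 in WT. In CPM it was at 1345, 1185 and 1405 in KO and at 468, 532 and 531 in WT. The groups did not overlap, but the difference was small beside that of ELAVL2: 2.57-fold, with a log2 change of 0.97 ± 0.08. This change was 0.41 with median-ratio scaling and 1.36 with library totals alone.

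ELAVL3 (ENSG00000196361, chr19:11451326-11481046, minus strand), or HuC, had 0 counts in every KO library and 14692, 13377 and 12522 in WT, or 236, 208 and 203 CPM. At its WT share, 156 to 186 counts would have been seen in each KO library. Taking 3 counts in the KO libraries together (1.25 CPM) as the floor, ELAVL3 was at least 172-fold lower. It was the one gene of the 10 at 0 in all KO libraries.

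ELAVL1 (ENSG00000066044, chr19:7958573-8005659, minus strand), or HuR, had 10, 12 and 0 counts in KO and 11739, 11304 and 10849 in WT. It was at 12.4, 13.9 and 0 CPM in KO and at 189, 176 and 176 in WT. Its mean was 20.6-fold lower, with a log2 change of -4.69 ± 0.47. The fold was 13.7 without KO replicate 3, the library at 0, and 29.1 without KO replicate 2.

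The order of the family by FPKM in WT was ELAVL4 (55.9 ± 4.0), ELAVL3 (41.5 ± 3.5), ELAVL1 (23.7 ± 1.0) and ELAVL2 (4.83 ± 0.27). In KO it was ELAVL2 (438 ± 66), ELAVL4 (140.5 ± 13), ELAVL1 (1.08 ± 0.94) and ELAVL3 at 0. No neighbours in either order overlapped between libraries, except that ELAVL1 and ELAVL3 were both at 0 in KO replicate 3. ELAVL2 therefore made up 75.4% ± 1.4 of the family's FPKM in KO and 3.83% ± 0.22 in WT, and ELAVL4 24.4% ± 1.2 and 44.4% ± 3.2. ELAVL3 and ELAVL1 held 33.0% ± 2.7 and 18.8% ± 0.77 in WT. The family's summed FPKM was 579 ± 78 in KO and 126 ± 0.70 in WT.

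**Figure D2:**
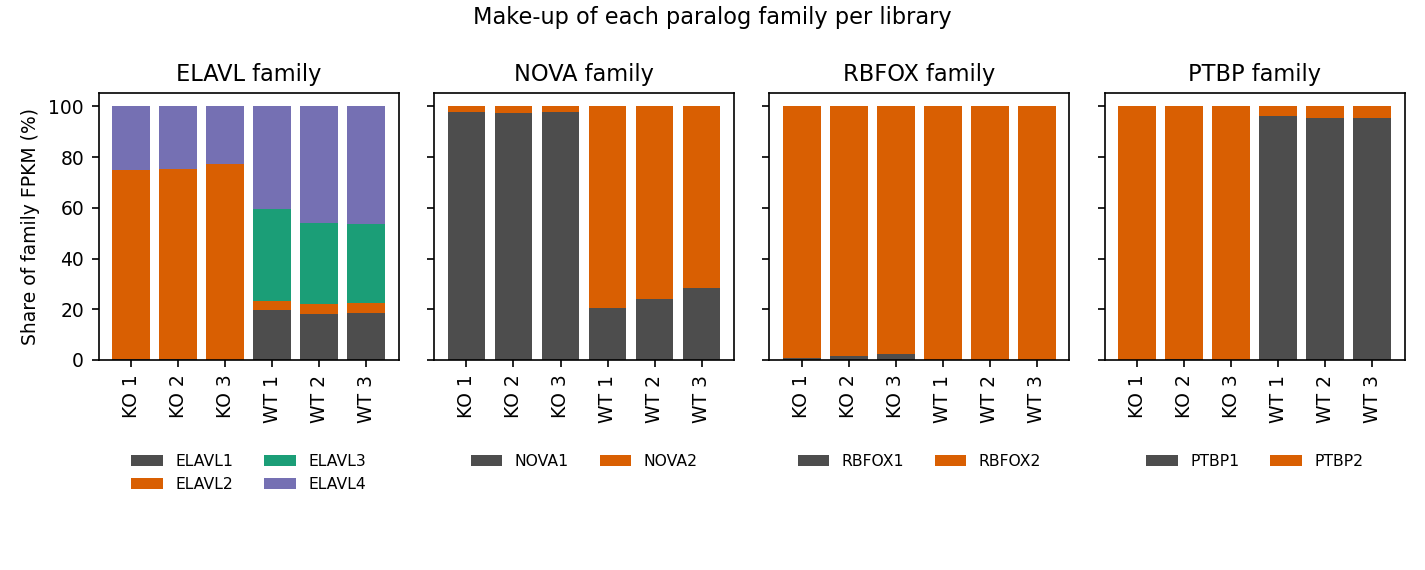
Share of each paralog in the summed FPKM of its family (%), one stacked bar per library, 3 KO and 3 WT. The leading paralog is PTBP1 in WT and PTBP2 in KO, and NOVA2 in WT and NOVA1 in KO, in all 6 libraries; ELAVL2 takes 75.4% of its family in KO, and RBFOX2 holds nearly all of its family in both groups.

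The RBFOX pair kept the same leading paralog. RBFOX2 (ENSG00000100320, chr22:35738736-36028824, minus strand), which is made in many tissues, had 250, 205 and 204 counts in KO and 24781, 26675 and 25586 in WT. Its level was 309, 238 and 281 CPM in KO and 398, 415 and 414 in WT. The groups did not overlap, and RBFOX2 was 1.48-fold lower in KO with a log2 change of -0.97 ± 0.09, which was -1.52 with median-ratio scaling and -0.57 with library totals alone. It held 98.5% ± 0.81 of the pair's FPKM in KO and 99.9% ± 0.017 in WT.

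RBFOX1 (ENSG00000078328, chr16:5239802-7713340, plus strand), the neuronal and muscle paralog, had 2, 4 and 8 counts in KO and 42, 34 and 41 in WT. Its mean of 0.163 FPKM over the libraries was under the minimum of 1, so it was not among the tested genes. In CPM it was at 2.47, 4.64 and 11.0 in KO and at 0.675, 0.528 and 0.664 in WT. The ratio of means was 9.71-fold higher, with a counting interval of 4.98 to 16.4 on the pooled ratio of 9.40, and was 5.71-fold without KO replicate 3. RBFOX3 (NeuN), which was not among the 10 genes, had 0 counts in KO and 50, 42 and 46 in WT; its WT level of 0.734 CPM lies below the KO floor, so no fold can be given.

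Across the 4 families, 9 of the 10 genes were tested in the fit over all genes, and in it 4 stood higher (ELAVL2, ELAVL4, NOVA1, PTBP2) and 5 lower (ELAVL1, ELAVL3, NOVA2, RBFOX2, PTBP1). Of all 10820 tested genes, 95.6% were called, 7.63% higher and 88.0% lower. The groups did not overlap for 8 of the 9, NOVA2 being the exception, and for 96.2% of all tested genes. Because the genes were chosen with this contrast known, nothing is read from these counts. With genes at 0 in KO set to their bound, the median log2 ratio of mean CPM was -0.40 over the 9 genes and -4.55 over the 10799 tested genes with WT counts. Together the 10 genes took 0.741% ± 0.086 of all counts in KO and 0.213% ± 0.00078 in WT. By FPKM over all 10, NOVA1 (147 ± 19.7) and ELAVL4 (140.5 ± 13) overlapped in KO, as did NOVA2 (4.92 ± 1.0) and ELAVL2 (4.83 ± 0.27) in WT. At the low end in KO, ELAVL1 (0 to 1.74), RBFOX1 (0.139 to 0.471), PTBP1 (0 to 0.353) and ELAVL3 (0) overlapped too.

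**Figure D3:**
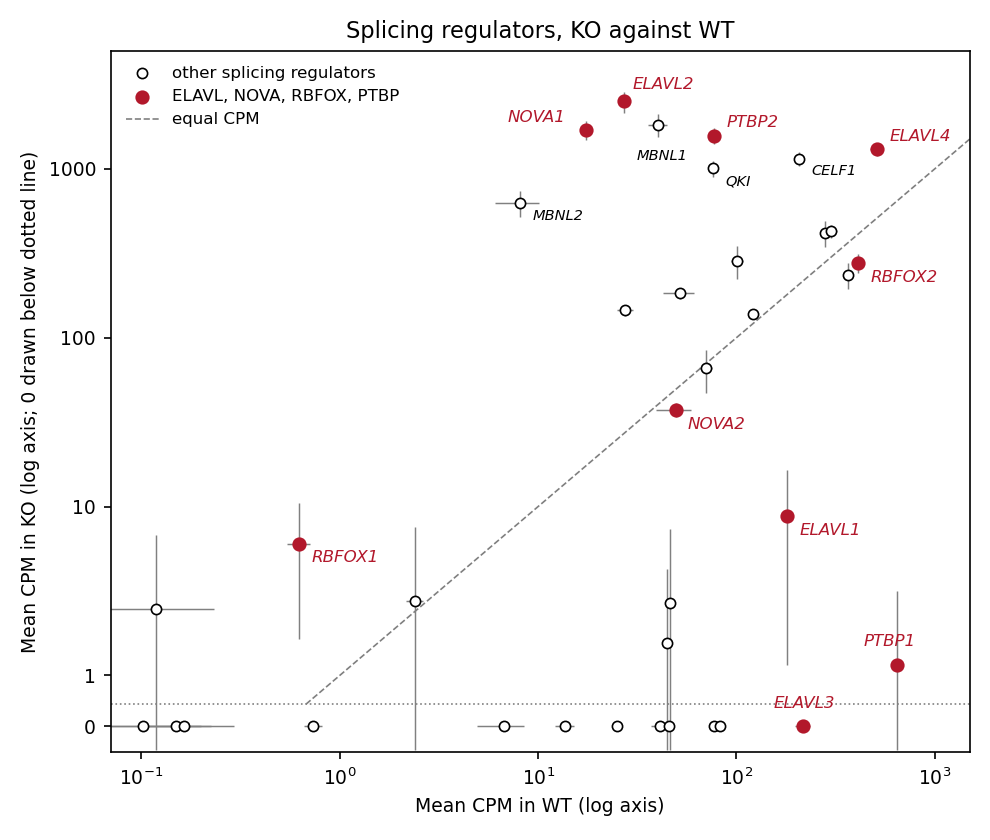
Mean CPM in KO against mean CPM in WT (log axes, 0 in KO drawn below the dotted line; lines are SD, n = 3 each) for the 10 genes, filled, and 27 other splicing regulators, open. NOVA1, ELAVL2 and PTBP2 lie with MBNL1, MBNL2 and QKI far above the line of equal CPM, and PTBP1, ELAVL1 and ELAVL3 far below it.

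Other tissue-regulated splicing regulators moved in both directions. Of 28 listed, 27 were in the table and 19 were tested: 7 rose in KO, 8 fell and 4 were not called, where 7.63% of all tested genes rose and 88.0% fell. The median log2 ratio of mean CPM, with genes at 0 at their bound, was 0.19 over the 19. SRRM3 (0 counts in KO, 82.8 ± 4.5 CPM in WT, at least 66.2-fold lower) and SRRM4 (45.6 ± 1.5 CPM in WT, at least 36.4-fold lower), which promote neuronal microexons, were at 0 in KO. So were KHDRBS3 (at least 61.8-fold lower) and CELF5 (at least 32.9-fold lower). The smallest changes were those of MSI2 (log2 0.12, adjusted p = 0.38) and CELF3 (log2 0.17, adjusted p = 0.19). Both changed sign with median-ratio scaling and were then called lower.

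The regulators that rose were singled out after their values were seen. Of the muscleblind genes, MBNL1 and MBNL2 rose, while MBNL3, under the minimum of 1 FPKM and so not tested, had 0 counts in KO and 751, 879 and 936 in WT, at least 10.9-fold lower. MBNL1 had 1385, 1390 and 1555 counts in KO and 2255, 2530 and 2767 in WT, 45.4-fold higher in CPM with a log2 change of 5.11 ± 0.15 (edgeR adjusted p = 2e-06). MBNL2 was 77.6-fold higher (adjusted p = 7.6e-06). QKI, which regulates splicing in glia and other cells, was 13.2-fold higher (adjusted p = 2.2e-06), and CELF1 5.56-fold (adjusted p = 7.4e-06). CELF4 was 5.30-fold, MSI1 3.53-fold and HNRNPLL 2.82-fold higher.

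Proteins that bind AU-rich elements as ELAVL proteins do also differed in direction: of 7 listed, 5 were tested, 2 rose and 3 fell, beside 7.63% and 88.0% of all tested genes. TIAL1 rose 10.7-fold (log2 3.02 ± 0.087, adjusted p = 2e-06) while its paralog TIA1 fell 5.08-fold (log2 -2.76, adjusted p = 2.3e-05). HNRNPD (AUF1), a decay factor, was 5.19-fold higher (log2 1.97, adjusted p = 1.1e-05). KHSRP, another decay factor, had 0, 0 and 28 counts in KO and 19246, 17000 and 16130 in WT (log2 -4.95 ± 0.91, adjusted p = 0.0016), all from KO replicate 3. ZFP36L2 had a log2 change of -0.63 (adjusted p = 0.015) that was no longer called with library totals alone (-0.23), with WT thinned to the KO depth (-0.09), with limma (-0.33 and -0.30) or without any 1 of the WT libraries (-0.63 to -0.52).

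Of 12 mRNAs known as ELAVL targets, 10 were tested: 3 rose and 7 fell, 4 of them to 0 in KO, where 7.63% of all tested genes rose, 88.0% fell and 71.3% were at 0. The median log2 ratio with zeros at their bound was -3.11, beside -4.55 over all tested genes. MAPT, which encodes tau and is stabilised by ELAVL4, had 0 counts in KO and 2945, 2794 and 2408 in WT, at least 34.6-fold lower. CDKN1A (at least 33.5-fold lower), GAP43 (at least 33.2-fold) and ACHE (at least 11.1-fold) were also at 0. GAP43 encodes a growth-cone protein. ELAVL4 was at 1185 to 1405 CPM in the KO libraries, and its part in the levels of the listed targets was not tested. SATB1, a chromatin organiser, had a log2 change of -0.81 (adjusted p = 0.00024), which was -0.11 and not called with WT thinned to the KO depth. NRN1 (neuritin), named after its values were seen, went furthest the other way: 2137, 1903 and 2111 counts in KO against 452, 493 and 452 in WT, 349-fold higher in CPM (log2 8.04 ± 0.11, adjusted p = 4.4e-07).

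Among 12 genes with exons that these regulators are known to control, 11 were in the table and 10 tested: 1 rose, 6 fell and 3 were not called, at the level of the whole gene, beside 7.63% that rose and 88.0% that fell of all tested genes. SRC, whose neuronal N1 exon is repressed by PTBP1, was at 0 in KO and at 232 ± 13 CPM in WT, at least 185-fold lower. PKM, whose mutually exclusive exons PTBP1 selects, had 0, 16 and 5 counts in KO and was 142-fold lower (log2 -7.49, adjusted p = 2.9e-05). FLNA was 83.9-fold lower (adjusted p = 2.3e-05) and AGRN, whose Z exons NOVA proteins control, 18.1-fold lower (adjusted p = 4.1e-05). TPM1 (log2 -0.17, adjusted p = 0.14) and DLG4 (log2 0.20, adjusted p = 0.32) were not called, and the sign of both depended on the scaling. GPHN, the one that rose, was 5.72-fold higher (adjusted p = 1.2e-05) and is named after its values were seen. With library totals alone, 3 genes of this list rose.

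For the paralog of each family with the highest level in KO, the 2 tested genes nearest to it over the 6 libraries were taken by Euclidean distance in log2(CPM + 1), among 10165 candidates. Left out of the candidates were the 10 genes themselves and tested genes whose names hold a dot or begin as clone, LOC, LINC, MIR or SNOR names do. Nearest to PTBP2 were TAF9 (distance 0.304; 1421 ± 192 CPM in KO, 74.0 ± 6.7 in WT) and ARIH1 (0.426). ELAVL2 lay nearest to HNRNPA1L3 (0.492; 2213 ± 316 and 23.3 ± 1.5 CPM), a copy of HNRNPA1 whose reads may be split between the copies, and then to MBNL1 (1.25). NOVA1 was followed by HNRNPA1L3 (0.969) and SSBP2 (1.47). RBFOX2 had PPM1G (0.392) and the splicing regulator KHDRBS1 (0.534) beside it.

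The 4 genes on chromosome 19, ELAVL1, ELAVL3, NOVA2 and PTBP1, were all lower in KO, as were 88.0% of all tested genes by edgeR's call. The 4 that were higher among those tested lie on chromosomes 1, 9 and 14. The shares by chromosome given next are of genes at 0 in all KO libraries, which of these genes held for ELAVL3 alone. On chromosome 19, 79.8% of 747 tested genes were at 0 in all KO libraries, against 71.3% of all tested genes, 69.7% on chromosome 1, 71.5% on chromosome 9 and 70.3% on chromosome 14. The share was 75.5% on chromosome 16, where RBFOX1 lies, and 74.6% on chromosome 22, where RBFOX2 lies. Transcripts of the higher genes were poor in GC (ELAVL2 36.2%, ELAVL4 36.9%, NOVA1 41.9%, PTBP2 34.7%) and those of the lower ones richer (ELAVL1 46.1%, ELAVL3 58.0%, NOVA2 57.0%, RBFOX2 45.7%, PTBP1 59.4%), taking the longest coding transcript of GENCODE 29. RBFOX1, higher in KO but not tested, was at 47.3%, above ELAVL1 and RBFOX2. Over all tested genes, split into 3 parts of equal size, 68.6% of those lowest in transcript GC and 73.3% of those highest were at 0 in KO, as were 78.0% of those with the shortest and 61.4% of those with the longest transcripts. The part of chromosome, GC content and length in the levels of the 10 genes was not tested.

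The divergent or antisense neighbours ELAVL4-AS1 and NOVA1-DT had 0 counts in KO and 4 to 17 and 8 to 14 in WT. KO libraries were 78.5-fold shallower in the means, so 0 counts there do not show that either was lower. Counts divided by FPKM and by the library total imply the length used for a gene. For the 6 of the 10 genes with at least 20 counts in every library, that length in KO was 1.02 to 1.04 times that in WT, and 1.01 to 1.16 times for all 1064 such genes. For these 6 genes the FPKM values thus used nearly the same length in both groups. Isoforms were not measured.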

How the data were processed

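Poly(A) RNA of 3 KO and 3 WT libraries was measured. The deposited table gives whole-number counts per gene, not normalized, and FPKM that, per the file headers, the authors computed for each library. Per the submitters' processing notes, cutadapt 1.9, HISAT2 2.0.4, StringTie 1.3.4d, DESeq2 and hg38 were used; for the annotation release, and for whether counting used strand, the sources used here give nothing, so overlapping and antisense genes may share reads. Libraries were grouped by their titles.

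edgeR 4.0.16 (R 4.3.3; glmQLFit, glmQLFTest, TMM, total counts, genotype only) was fitted to the 10820 of 32862 genes averaging at least 1 FPKM, with Benjamini-Hochberg adjustment over all and calls at adjusted p under 0.05. The script was tested on simulated data in which few genes changed. Most genes were called in these libraries, so that test says nothing on the calls given here. CPM are counts per 1000000 counts of the library; folds are ratios of mean CPM. The floor of 3 counts was 3.48 to 4.13 CPM per KO library and 0.0466 to 0.0486 per WT library. Intervals are exact (95%), and intervals and floors cover counting error only. Replicate pairs differed by a chi-square of 15.5 to 41.7 per degree of freedom, so none was 1 library deposited again. Alternatives were other scalings, filters, DESeq2 1.42.0, limma 3.58.1, a replicate block, thinning and leaving out each library.

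The genes and lists were chosen with earlier results of these data known. Named are all 10 genes, PTBP3 and RBFOX3 (the latter not tested), up to 4 called genes of each list with the largest absolute log2 change and the 2 with the smallest among those tested, and the 2 nearest genes per leading paralog. A gene that this rule names is not reported here. Promoters came from RefSeq (GRCh38.p14). A check of promoter GC content was void, as 74.6% of tested genes had an entry.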

Additional observations from a re-analysis of the deposited data

How the results depend on the processing

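Of the 9 tested genes of the 4 families, the 8 with KO counts kept their direction under each alternative in which they were tested (NOVA2 was not tested at a mean FPKM of at least 5), and ELAVL3 was at 0 in every KO library. The scaling shifted all levels: over 1496 genes with at least 30 KO counts the median log2 change was 0.57 with TMM, 0.01 with median-ratio scaling and 0.96 with library totals alone. The 4 higher genes were called under every alternative, where 95.6% of all tested genes were called in the fit over all genes. Because these genes were chosen with this contrast known, nothing is read from their calls. The 5 lower genes were 4 with library totals alone, WT thinned, limma with a pseudocount of 0.1 or without KO replicate 1. In these settings NOVA2 had the smallest change of the 5, with log2 changes of -0.41, -0.07, -0.43 and -0.74 in turn. At a mean FPKM of at least 5, 4 of 8 tested genes were lower. With no filter on mean FPKM all 10 genes were tested, 5 called higher and 5 lower. The depth of the KO libraries limits ELAVL1, ELAVL3, RBFOX1 and PTBP1, which had at most 22 counts there in all.

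Replicate numbers did not pair the libraries (correlations of deviations for the same number 0.012, -0.007 and 0.029). With the replicate number as a block, 452 genes were called higher and 289 lower; of the 9 genes 4 were higher and 2 lower. Under the block 1 other splicing regulator fell, 1 AU-rich element binding protein fell, 1 ELAVL target rose and 0 fell, and 0 genes with regulated exons rose and 0 fell. At a mean FPKM of at least 5, where fewer genes are tested, 3851 genes, 4 ELAVL targets and 3 genes with regulated exons were lower. Genes with regulated exons that rose numbered 3 with WT thinned and with library totals alone, 2 with limma at either pseudocount, and 1 to 2 when 1 library was left out (2 without KO replicate 2).

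Signs changed for 4 genes that were not called as tested in the report. CELF3 was at -0.39 with DESeq2 and median-ratio scaling and -0.15 at FPKM of at least 5. MSI2 was at -0.44, -0.44 and -0.20 under these and -0.02 without a filter. DLG4 was at -0.36 with DESeq2 and median-ratio scaling and, with 1 library left out, from -0.09 (without KO replicate 2) to 0.33. TPM1 was at 0.24 with WT thinned, 0.23 with library totals alone, and 0.13 and 0.11 with limma at pseudocounts of 0.1 and 1. Some settings called these genes, and the direction of the call differed between settings. As higher, CELF3 reached 0.72 with WT thinned and 0.57 with library totals alone, MSI2 0.69 and 0.51, and DLG4 0.72 and 0.59. As lower, TPM1 was at -0.72 with DESeq2 and median-ratio scaling. In both of these settings 7 of the 19 tested other splicing regulators were called higher and 12 lower, so CELF3 and MSI2 were called lower there. The cause was not tested.

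As shares of summed counts in place of FPKM, ELAVL2 was 65.4% in KO and 2.90% in WT, ELAVL3 23.1% in WT, and ELAVL4 34.4% in KO and 54.7% in WT. NOVA1 was 97.8% and NOVA2 2.16% in KO. In WT, RBFOX1 was 0.152%, RBFOX2 99.8%, PTBP1 89.3% and PTBP2 10.7%. The implied length ratio was 0.645 relative to the median gene, 1.54 relative to the FPKM-weighted mean and 1.02 with no such division, an alternative added after seeing the data. At FPKM of at least 5, 57.3% of tested genes were at 0 in KO, 68.4% on chromosome 19, 50.1% and 64.4% of those lowest and highest in GC, and 66.9% and 44.0% of those with the shortest and longest transcripts.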
